A study of Homo sapiens with 8 samples.

Results

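The comparison described here sets vehicle-treated cultures of the Nthy-ORI line at 24 h against those at 6 h, across all genes. It compares 4 of the 8 RNA sequencing libraries of the study: the 2 libraries titled vehicle at 24 h and the 2 titled vehicle at 6 h, chosen by title alone. The filter, the scaling and the spread behind the p-values were taken from all 8 libraries. Of 56832 gene rows, 14611 passed a filter on low counts and were tested. Nthy-ORI is a line of immortalised epithelial cells from normal human thyroid. Cells of all 4 groups of the study had been starved of hormone for 24 h, in medium without phenol red and with charcoal-stripped serum. They then received 10 nM T3 (triiodothyronine, the active thyroid hormone) or its NaOH vehicle for 6 h or 24 h, with 2 libraries per group. Both vehicle groups therefore lacked added hormone and differ, by their labels, only in the time after the vehicle. Total RNA was depleted of ribosomal RNA before library preparation. Whether the libraries of a group stem from separate cultures is not said in the labels. The p-values here thus reflect only how much the 8 libraries scatter within their groups, and that scatter may be technical. Levels are given in CPM, read counts scaled to the depth of the library, and a log2 fold change is given ± its standard error, 24 h over 6 h. A gene rose, fell or was called where its adjusted p was below 0.05. The labels give neither a batch nor a date, and the time after vehicle cannot be told apart from any other difference between the 6 h and the 24 h libraries, the identity of the cells included.

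Thyroid follicular cells are specified by the transcription factors PAX8, NKX2-1, FOXE1 and HHEX. They make thyroid hormone from thyroglobulin (TG), take up iodide through SLC5A5 and respond to thyrotropin through TSHR. Epithelial cells are held together by tight junctions, adherens junctions and desmosomes, whereas mesenchymal cells secrete and remodel a fibrous matrix. Free T3 acts through the nuclear receptors THRA and THRB and induces KLF9, a zinc finger repressor, and HR, a corepressor of the receptors, which makes both genes useful checks of the treatment labels.

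Counts in genes ranged from 2517983 to 8201606 per library over the study, with 3428165 and 2517983 in the vehicle 6 h libraries and 3957592 and 6743039 in the vehicle 24 h libraries. A floor of 3 counts corresponded to 0.875 and 1.19 CPM at 6 h and to 0.758 and 0.445 CPM at 24 h. These floors are before the scaling between libraries (TMM) that gene levels here carry. On the scaled levels 3 counts in the vehicle 6 h replicate 1 are 0.904 CPM. Intervals and floors cover counting error only. Reads of near-identical genes (alkaline phosphatases, HSPA1A and HSPA1B, metallothioneins, KRT81, IFITM2, HLA genes, zinc finger genes) may be shared among copies, so single members are uncertain, and whether counting used strand is not given in the sources used here. Pearson correlations of log2 CPM across genes were 0.970 to 0.986 between the libraries of a group, 0.958 to 0.971 between treatments at the same time, and 0.687 to 0.769 between libraries of different times. KLF9 measured 0.904 and 0.818 CPM at 6 h and 20.8 and 31.4 CPM at 24 h in the vehicle libraries, against 13.4 and 14.1 CPM in the T3 libraries at 6 h and 2.79 and 3.35 CPM in those at 24 h. HR measured 68.4 and 58.5 CPM at 6 h and 4.29 and 3.89 CPM at 24 h in the vehicle libraries, against 116 and 102 CPM with T3 at 6 h and 0.31 and 0.116 CPM with T3 at 24 h. At 6 h both genes were higher in the libraries labelled T3. At 24 h both were lower in the libraries labelled T3, which goes against the treatment labels of that time, and "24 h" below therefore means the libraries labelled vehicle at 24 h. With the 2 libraries labelled T3 at 24 h in their place, and vehicle at 6 h still the reference, 10350 genes were called.

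The 2 times differed across most of the transcriptome. By edgeR's quasi-likelihood test with Benjamini-Hochberg adjustment over all genes, 9424 of 14611 genes passed an adjusted p of 0.05 (64.5%): 4668 were higher at 24 h (31.9%) and 4756 were lower (32.6%). Because so large a share passed, lists of genes are read below against a stricter test of the same fit, which asks whether a change exceeds 2-fold. That test called 4114 genes (28.2%), of which 1812 were higher at 24 h (12.4%) and 2302 were lower (15.8%). The median log2 fold change over all genes was 0.03 and the median size was 0.94. Among called genes, 617 were at least 8-fold higher and 870 at least 8-fold lower. The libraries of the 2 times did not overlap for 12177 genes (83.3%). With DESeq2 the 2-fold count was 2234, and without the vehicle 6 h replicate 1 it was 2605.

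**Figure D1:**
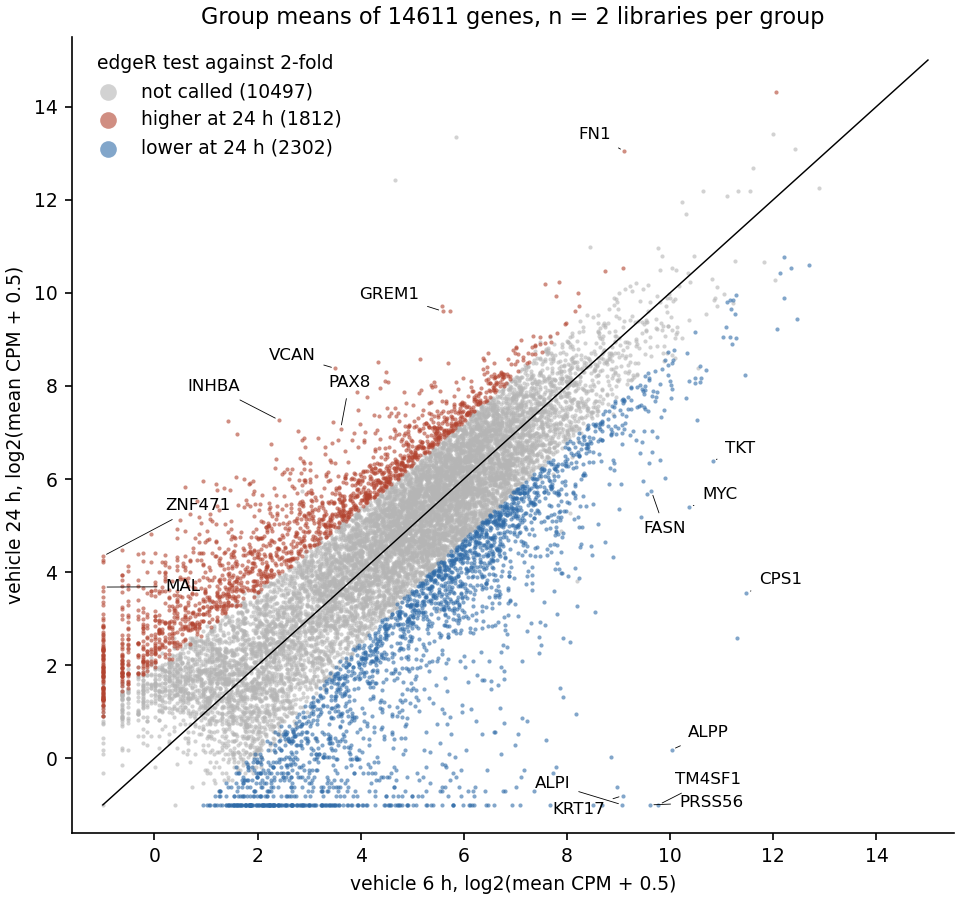
Mean CPM of the 2 vehicle libraries at 6 h (x axis) and at 24 h (y axis) for the 14611 genes tested, each as log2 of the mean plus 0.5 CPM. Colours mark genes called higher (1812) or lower (2302) by the test against 2-fold, the line marks equal means, and the row of points along the lower edge is made of genes abundant at 6 h with no count at 24 h.

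RNAs with the most counts, not corrected for length, changed as well. FN1, encoding the matrix glycoprotein fibronectin, measured 457 and 646 CPM at 6 h and 7863 and 9006 CPM at 24 h (log2 fold change 3.94 ± 0.17, adjusted p = 5.49e-12). MALAT1, a nuclear long noncoding RNA, measured 3701 and 4817 CPM at 6 h and 17436 and 23117 CPM at 24 h (log2 fold change 2.25 ± 0.16, adjusted p = 2.43e-09). The cytoplasmic actin ACTG1 went the other way, with 4675 and 3960 CPM at 6 h and 614 and 574 CPM at 24 h (log2 fold change -2.86 ± 0.14, adjusted p = 1.82e-11), and so did FTH1, the heavy chain of the iron store ferritin, with 5436 and 5910 CPM at 6 h and 705 and 680.5 CPM at 24 h (log2 fold change -3.03 ± 0.13, adjusted p = 5.45e-12). The translation elongation factors EEF1A1 and EEF2 had log2 fold changes of -1.44 ± 0.14 and -1.70 ± 0.13. Of the 18 housekeeping reference genes listed, 9 were lower at 24 h by the 2-fold test and 0 higher with a median log2 fold change of -1.20. GAPDH measured 5359 and 5080 CPM at 6 h and 1546 and 1396 CPM at 24 h, and RPLP0, a protein of the large ribosomal subunit, 2523 and 2027 CPM at 6 h and 638 and 416 CPM at 24 h.

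Genes with many counts at 6 h and none at all at 24 h formed a distinct group. Of 8062 genes with a mean of at least 20 CPM in the vehicle libraries at 6 h, 41 had no count in either library at 24 h, 0.281% of the genes tested. The reverse was seen for 0 of the 7826 genes with a mean of at least 20 CPM at 24 h. When up to 3 counts were allowed in the low group, the numbers were 89 and 5. In the T3 libraries across the same times, 71 genes were lost in this way and 1 gained, or 89 and 25 with up to 3 counts. Between vehicle and T3 libraries of the same time, 0 genes behaved in this way.

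TM4SF1, a membrane protein of the tetraspanin-like L6 family, had the highest mean CPM, not per length, of these 41 genes. It measured 875 and 873 CPM at 6 h and had no count at 24 h, at least 3240-fold lower when 3 counts are allowed over the group, as in all such bounds here. PRSS56, a serine protease gene (chromosome 2, 232520463 to 232525716), measured 914 and 642 CPM at 6 h and was at least 2959-fold lower. GDA, the guanine deaminase, measured 384 and 439 CPM and was at least 1509-fold lower. KYNU, the kynureninase of tryptophan breakdown, measured 85.9 and 106 CPM and was at least 349-fold lower. PDE1A, a calmodulin-dependent phosphodiesterase, had 80.8 and 95.8 CPM, the mucin gene MUC3A 124 and 119 CPM, the protease inhibitor gene SPINK6 83.5 and 88.8 CPM and the noncoding RNA gene RP11-255B23.3 318 and 408 CPM at 6 h. None of these 4 had a count at 24 h. WISP2, a matricellular protein of the CCN family, measured 149 and 124 CPM at 6 h and was at least 513-fold lower at 24 h.

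The thyroid lineage list was mostly silent at both times. Of its 18 genes, 4 passed the filter on low counts, 3 of these were higher at 24 h and 2 passed the 2-fold test (1 with DESeq2, with GC and length offsets or without the vehicle 6 h replicate 1), while 8 of the 18 had no count at 6 h and 5 none at 24 h. PAX8 (chromosome 2, 113215997 to 113278950) measured 9.95 and 13.5 CPM at 6 h and 114 and 155 CPM at 24 h (log2 fold change 3.54 ± 0.21, adjusted p = 2.67e-10). GLIS3, a zinc finger factor of thyroid and pancreas development, measured 10.6 and 13.5 CPM at 6 h and 29.6 and 43.5 CPM at 24 h (log2 fold change 1.63 ± 0.25, adjusted p = 2.66e-05). The forkhead factor FOXE1 measured 13.9 and 12.7 CPM at 6 h and 21.01 and 23.02 CPM at 24 h (log2 fold change 0.73 ± 0.31, adjusted p = 0.0479), a call that was lost with DESeq2, without the vehicle 6 h replicate 1 and with the 24 h libraries labelled T3. HHEX, a homeobox factor, measured 16.6 and 16.8 CPM at 6 h and 12.9 and 14.7 CPM at 24 h, with a log2 fold change of -0.27 ± 0.26 that did not pass (adjusted p = 0.372).

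The genes named here of hormone synthesis, iodide uptake and thyrotropin response, and 1 defining factor, were at or near 0 and were not tested. TG had no count at 6 h and 0.452 and 0 CPM at 24 h. TSHR had no count at 6 h and 0.226 and 0 CPM at 24 h. NKX2-1 measured 0.603 and 0 CPM at 6 h and had no count at 24 h, and SLC5A5, the iodide transporter, measured 1.51 and 0.409 CPM at 6 h and had no count at 24 h. The summed level of the 18 genes was 54.6 and 58.5 CPM at 6 h and 182 and 239.9 CPM at 24 h, most of it PAX8 at the later time. Of the factors that define the labelled cell type, PAX8, FOXE1 and HHEX were thus present at both times, whereas NKX2-1, TG, TSHR and SLC5A5 lay near the floor of 3 counts. In bulk RNA, fewer cells of a type and less RNA per cell cannot be told apart.

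Among the marker lists of other cell types, the hepatocyte list had the largest sum at 6 h. Of its 20 genes, 3 were tested, and the summed level of the list went from 2885 and 2869 CPM at 6 h to 30.1 and 23.2 CPM at 24 h. Almost all of it at 6 h was CPS1 (chromosome 2, 210477682 to 210679107), the mitochondrial carbamoyl phosphate synthetase that feeds the urea cycle. CPS1 measured 2870 and 2846 CPM at 6 h and 13.3 and 9.27 CPM at 24 h (log2 fold change -8.01 ± 0.20, adjusted p = 2.77e-14). APOB, the apolipoprotein of very low density lipoproteins, measured 3.01 and 11.9 CPM at 6 h and had no count at 24 h, at least 25.1-fold lower. SERPINA1, the circulating elastase inhibitor, measured 3.01 and 5.32 CPM at 6 h and 12.9 and 12.1 CPM at 24 h (log2 fold change 1.62 ± 0.48, adjusted p = 0.00743) and did not pass the 2-fold test, and its call was lost without the vehicle 6 h replicate 1 and with the 24 h libraries labelled T3. Of the list, 8 genes had no count at 6 h and 11 none at 24 h.

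Squamous and basal epithelial markers were lower at 24 h with 1 exception. Of 16 listed genes 6 were tested, and 5 of these were lower and 1 higher by the 2-fold test. KRT17, a keratin of basal and stressed epithelium, measured 599 and 486 CPM at 6 h and 0 and 0.149 CPM at 24 h, 6129 times less (95% interval from counting error, 1099 to 242160). TRIM29, a tripartite motif protein of basal cells, measured 218 and 190.3 CPM at 6 h and was at least 765-fold lower. The exception was DSC3, a desmosomal cadherin, with 2.11 and 1.64 CPM at 6 h and 38.2 and 41.7 CPM at 24 h (log2 fold change 4.37 ± 0.31, adjusted p = 2.60e-09). TP63, the master regulator of this lineage, did not pass the filter.

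Intestinal markers were represented mainly by ALPI. The list's summed level was 601 and 512 CPM at 6 h and 4.29 and 5.08 CPM at 24 h, with 3 of 19 genes tested. ALPI (chromosome 2, 232456123 to 232460032), the intestinal alkaline phosphatase, measured 584 and 494 CPM at 6 h and had no count at 24 h, at least 2022-fold lower. ALPP (chromosome 2, 232378534 to 232382889), its placental relative, measured 1147 and 944 CPM at 6 h and 0.226 and 1.05 CPM at 24 h (log2 fold change -10.46 ± 0.26, adjusted p = 5.13e-14), and ALPPL2, the germ cell form, measured 9.04 and 10.2 CPM at 6 h and had no count at 24 h. All 3 tested members of the alkaline phosphatase list of 4 were thus lower, although their coding sequences are alike enough for reads to be shared. ALPP, ALPI and PRSS56 are the 3 tested genes with a position that lie within 147 kb of chromosome 2, 232378534 to 232525716, on 1 strand, ALPPL2 having no position under its symbol. All 3 were among the 5 smallest p-values or the 12 largest falls. The interval was picked after their values were seen.

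Of 12 fibroblast markers 6 were tested, with 4 lower and 1 higher by the 2-fold test (0 higher with DESeq2 and without either vehicle 6 h library, 2 lower with a stricter filter on low counts), and the list's sum went from 298 and 219 CPM to 33.4 and 34.4 CPM. S100A4, a calcium-binding protein, made up most of that sum at 6 h, with 261 and 183 CPM at 6 h and 0.452 and 0.299 CPM at 24 h (log2 fold change -9.17 ± 0.32, adjusted p = 5.98e-13). Among 12 immune markers 2 were tested and moved in opposite directions: CSF1R, the receptor of macrophage colony-stimulating factor, measured 52.8 and 47.5 CPM at 6 h and 0.452 and 0.299 CPM at 24 h (log2 fold change -7.03 ± 0.36, adjusted p = 4.72e-11). CD74, the invariant chain of class II antigen presentation, measured 5.12 and 6.55 CPM at 6 h and 65.98 and 80.7 CPM at 24 h (log2 fold change 3.67 ± 0.25, adjusted p = 1.96e-09). None of 10 endothelial markers passed the filter. MITF, a melanocyte and kidney-lineage factor, measured 105 and 133 CPM at 6 h and 14.7 and 21.8 CPM at 24 h (log2 fold change -2.67 ± 0.22, adjusted p = 5.24e-08). FOXA1, a pioneer factor of luminal epithelium, measured 8.74 and 12.3 CPM at 6 h and 0.226 and 0.598 CPM at 24 h (log2 fold change -4.48 ± 0.73, adjusted p = 4.30e-05).

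**Figure D2:**
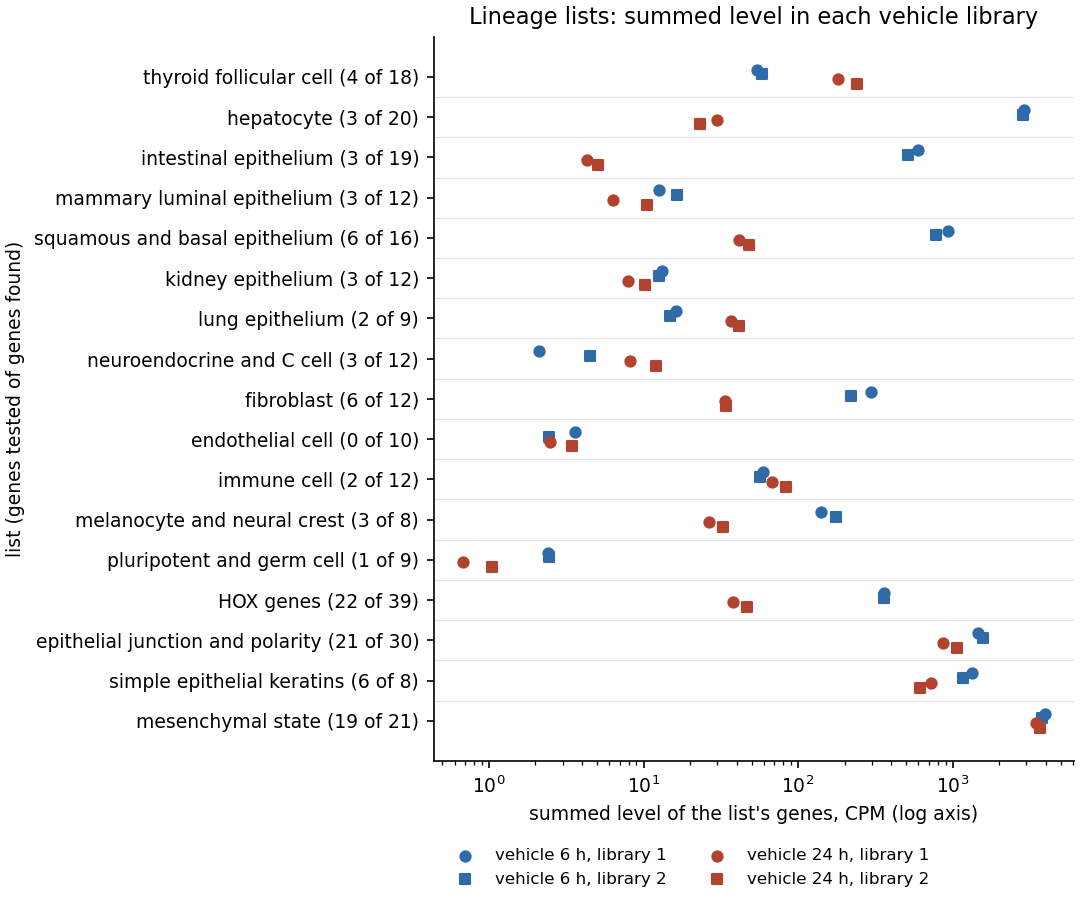
Summed CPM of each lineage list in the 4 vehicle libraries (log axis), 1 point per library, with the number of members tested of those listed. The hepatocyte sum goes from 2885 and 2869 CPM to 30.1 and 23.2 CPM and the thyroid sum from 54.6 and 58.5 CPM to 182 and 239.9 CPM, while the endothelial and immune sums lie close together at both times.

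HOX genes, which fix position along the body axis and mark the origin of a cell, were lower at 24 h. Of 39 genes 22 were tested, 13 were lower and 1 higher by the 2-fold test, and the median log2 fold change was -3.71. The summed level was 359 and 361 CPM at 6 h and 38.0 and 46.6 CPM at 24 h. HOXA13, a distal limb and urogenital gene, measured 64.2 and 73.7 CPM at 6 h and was at least 253-fold lower, and HOXA10 measured 71.4 and 65.5 CPM and was at least 255-fold lower. By cluster, 5 of 5 tested HOXA genes and 3 of 3 HOXD genes were lower at 2-fold, against 3 of 7 HOXB genes and 2 of 7 HOXC genes. HOXB4, which a stricter filter on low counts leaves out, was the 1 member that rose past 2-fold, from no count at 6 h to 2.94 and 5.98 CPM at 24 h.

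Genes of epithelial junctions and polarity were largely lower at 24 h. Of 30 listed genes 21 were tested, 13 were lower and 2 higher by the 2-fold test, and the median log2 fold change was -2.26. JUP, the plakoglobin that links desmosomes and adherens junctions to the cytoskeleton, measured 365 and 348 CPM at 6 h and 17.4 and 23.2 CPM at 24 h (log2 fold change -4.12 ± 0.25, adjusted p = 4.13e-08). DSP, the desmoplakin that ties desmosomes to keratin, measured 496 and 577 CPM at 6 h and 124 and 162 CPM at 24 h (log2 fold change -1.90 ± 0.13, adjusted p = 2.64e-09).

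Regulators and proteases of the epithelial state fell as well. ESRP2, an epithelial splicing regulator, measured 65.1 and 58.9 CPM at 6 h and 1.36 and 1.64 CPM at 24 h (log2 fold change -5.32 ± 0.37, adjusted p = 4.00e-09). ST14, the membrane protease matriptase, measured 16.3 and 13.1 CPM at 6 h and had no count at 24 h, at least 55.3-fold lower. The transcription factor ELF3 measured 9.95 and 14.7 CPM at 6 h and 1.58 and 2.54 CPM at 24 h (log2 fold change -2.51 ± 0.45, adjusted p = 1.24e-04). Tight junction claudins parted. CLDN7 measured 10.8 and 11.5 CPM at 6 h and 0.226 and 0.747 CPM at 24 h (log2 fold change -4.32 ± 0.53, adjusted p = 2.60e-06). CLDN4 fell from 14.8 and 13.5 CPM to 1.81 and 0.747 CPM. CLDN1 measured 102 and 115 CPM at 6 h and 215 and 275 CPM at 24 h (log2 fold change 1.18 ± 0.14, adjusted p = 9.14e-07).

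The 2 members that rose past 2-fold were tight junction proteins. OCLN, occludin, measured 3.32 and 3.27 CPM at 6 h and 18.1 and 17.8 CPM at 24 h (log2 fold change 2.43 ± 0.32, adjusted p = 3.81e-06), and TJP1, the scaffold ZO-1, measured 162 and 218 CPM at 6 h and 433 and 538 CPM at 24 h (log2 fold change 1.36 ± 0.14, adjusted p = 3.33e-07). CDH1, the E-cadherin of adherens junctions, was near the floor at both times, with 0.904 and 1.64 CPM at 6 h and 0.452 and 0.299 CPM at 24 h, and was not tested. EPCAM, an epithelial surface protein, measured 9.64 and 6.14 CPM at 6 h and 1.36 and 2.24 CPM at 24 h (log2 fold change -2.09 ± 0.50, adjusted p = 0.00157). With offsets for GC content and length, 10 members of the junction list were lower and 0 higher, against 13 and 2, and 1 was higher with DESeq2 and without the vehicle 6 h replicate 1.

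Promoter letters of these genes are shown because junction genes are known targets of the repressors ZEB1, ZEB2, SNAI1 and SNAI2, which bind the E-box CACCTG. RefSeq promoter windows of GRCh38.p14, 250 bases before each start, were matched by symbol for 17 of the 30 junction genes, and CACCTG was searched on both strands (CAGGTG on the other). It stood in 11 of their 25 windows (44%), against 17.5% of all 35116 windows. Among the 13 members lower at 2-fold, 7 matched, and 5 of 9 windows held it (55.6%), those of CLDN7, CRB3, DSP, ELF3 and JUP. Among the 2 higher members, OCLN and TJP1, 3 of 6 windows held it (50%), so the letters stood before genes of either direction. The AP-1 letters TGACTCA were found in 1 of the 9 windows of lower members, that of CLDN4.

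Below are the DSP stretch (lower at 24 h) and the whole TJP1 window (higher at 24 h), both of which overlap no exon of GENCODE 29, with the E-box letters in capitals, written 5′ to 3′ on the strand of the gene. The DSP stretch is chr6:7541473-7541518, plus strand, and the TJP1 window is chr15:29969050-29969299, minus strand.
DSP: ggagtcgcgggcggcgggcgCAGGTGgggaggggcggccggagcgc
TJP1: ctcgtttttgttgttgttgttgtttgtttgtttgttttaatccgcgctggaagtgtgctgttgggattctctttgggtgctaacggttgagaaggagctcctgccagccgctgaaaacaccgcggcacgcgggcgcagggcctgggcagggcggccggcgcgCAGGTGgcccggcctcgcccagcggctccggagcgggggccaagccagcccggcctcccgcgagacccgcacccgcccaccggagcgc
In DSP the box shown starts 178 bases before the start, and another, not shown, starts 85 bases before it. In TJP1 the box starts 88 bases before the start. A match is a description of letters and not a bound site.

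Of the same repressors, ZEB2 measured 10.6 and 9.82 CPM at 6 h and 68.01 and 94.8 CPM at 24 h (log2 fold change 2.997 ± 0.23, adjusted p = 6.34e-09) and ZEB1 18.99 and 35.2 CPM at 6 h and 39.5 and 55.2 CPM at 24 h (log2 fold change 0.85 ± 0.24, adjusted p = 0.00556), whose direction turned to a log2 fold change of -0.05 with GC and length offsets. The mesenchymal list as a whole was split, with 6 of 19 tested genes higher and 1 lower at 2-fold (0 lower with DESeq2, with GC and length offsets and without the vehicle 6 h replicate 1, 3 with the 24 h libraries labelled T3) and a median log2 fold change of -0.02. VIM, the intermediate filament of mesenchymal cells, was abundant at both times and lower at 24 h, with 1931 and 1816 CPM at 6 h and 922 and 983 CPM at 24 h (log2 fold change -0.98 ± 0.12, adjusted p = 2.03e-06). CDH2, N-cadherin, measured 103 and 122 CPM at 6 h and 233 and 302 CPM at 24 h (log2 fold change 1.26 ± 0.14, adjusted p = 6.87e-07).

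Simple epithelial keratins stayed expressed. KRT7 measured 707 and 596 CPM at 6 h and 272 and 231 CPM at 24 h (log2 fold change -1.38 ± 0.13, adjusted p = 7.76e-08), a call lost with GC and length offsets, and KRT18 295 and 281 CPM at 6 h and 161 and 121 CPM at 24 h (log2 fold change -1.04 ± 0.14, adjusted p = 3.82e-06). KRT81, a hair keratin, rose with 4.82 and 2.05 CPM at 6 h and 30.7 and 29.3 CPM at 24 h (log2 fold change 3.05 ± 0.35, adjusted p = 8.62e-07). Of the 6 tested keratins of this list, 1 was higher and 1 lower by the 2-fold test (0 lower with GC and length offsets and without the vehicle 6 h replicate 1, 3 with the 24 h libraries labelled T3), and KRT17, in the squamous list, fell much further.

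Matrix glycoproteins and proteoglycans rose in larger number than they fell. Of 36 tested members of 45, 15 were higher and 7 lower by the 2-fold test, the median log2 fold change was 1.06, and the summed level went from 3078 and 3184 CPM to 12011 and 12998 CPM. FN1 (chromosome 2, 215360440 to 215436172) alone, given above, made up most of the sum at 24 h. VCAN, the large proteoglycan versican, measured 6.63 and 15.1 CPM at 6 h and 312 and 350.1 CPM at 24 h (log2 fold change 4.99 ± 0.22, adjusted p = 1.00e-11). SPARC, a collagen-binding matricellular protein, measured 29.8 and 40.1 CPM at 6 h and 396 and 364 CPM at 24 h (log2 fold change 3.46 ± 0.16, adjusted p = 1.26e-11). At 6 h the T3 libraries held less FN1, 133 and 122 CPM, and less VCAN, 5.43 and 4.83 CPM, than the vehicle libraries. MEIOC, a meiosis gene with 31.4 and 37.4 CPM in the vehicle libraries at 24 h, had the same order at 6 h, with 6.63 and 5.73 CPM in the vehicle and 0.724 and 0.402 CPM in the T3 libraries. Whether RNA of the 24 h cultures is present in the vehicle 6 h libraries was not tested, and the 6 h levels of genes that rose, their fold changes and the differences between treatments are read with that limit.

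The basement membrane linker NID2, a nidogen, measured 0.301 and 0 CPM at 6 h and 15.4 and 14.2 CPM at 24 h, 84.5 times more (95% interval from counting error, 14.9 to 3357). The fibrillins, which form elastic microfibrils, parted. FBN1 measured 36.5 and 35.6 CPM at 6 h and 181 and 149.9 CPM at 24 h (log2 fold change 2.19 ± 0.16, adjusted p = 2.52e-09), whereas FBN2 measured 212 and 237 CPM at 6 h and 8.36 and 7.77 CPM at 24 h (log2 fold change -4.80 ± 0.19, adjusted p = 1.50e-12). MFAP5, another microfibril protein, measured 25.9 and 24.96 CPM at 6 h and had no count at 24 h, at least 94.5-fold lower.

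Collagen chains split by type. Of 21 tested chains of 30, 6 were higher and 4 lower at 2-fold, with a median log2 fold change of -0.23. Over all genes the shares were 12.4% higher and 15.8% lower. Among the fibrillar chains and their associates, COL1A1 (chromosome 17, 50183289 to 50201632) measured 188 and 189.5 CPM at 6 h and 1226 and 1123 CPM at 24 h (log2 fold change 2.64 ± 0.13, adjusted p = 2.28e-11). COL5A2 measured 7.84 and 7.37 CPM at 6 h and 61.01 and 59.8 CPM at 24 h (log2 fold change 2.98 ± 0.22, adjusted p = 4.52e-09). All 4 chains lower at 2-fold (7 with the 24 h libraries labelled T3) were basement membrane chains of type IV. COL4A4 measured 54.2 and 47.9 CPM at 6 h and 3.84 and 3.89 CPM at 24 h (log2 fold change -3.72 ± 0.25), COL4A5 measured 68.7 and 56.5 CPM at 6 h and was at least 235-fold lower, and COL4A3 measured 9.95 and 10.6 CPM at 6 h and 1.58 and 1.64 CPM at 24 h. COL4A6 measured 2.71 and 2.46 CPM at 6 h and had no count at 24 h. The type IV chains with the most counts, COL4A1 and COL4A2, did not follow: COL4A1 measured 221 and 198 CPM at 6 h and 334 and 304 CPM at 24 h (log2 fold change 0.60 ± 0.12), and COL4A2 measured 479 and 421 CPM at 6 h and 414 and 355 CPM at 24 h and did not pass, although GC and length offsets gave it a called log2 fold change of 0.52. The number of chains higher at 2-fold was 3 with DESeq2 and 3 without the vehicle 6 h replicate 1, against 6.

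Among the laminin chains, LAMA5, the alpha chain of most epithelial basement membranes, measured 532 and 422 CPM at 6 h and 19.2 and 20.03 CPM at 24 h (log2 fold change -4.60 ± 0.16, adjusted p = 5.98e-13). LAMC3 measured 37.4 and 31.1 CPM at 6 h and 1.81 and 1.94 CPM at 24 h (log2 fold change -4.17 ± 0.31, adjusted p = 4.36e-09). Integrin ITGA11, a collagen receptor, measured 3.62 and 4.09 CPM at 6 h and 24.4 and 29.4 CPM at 24 h (log2 fold change 2.81 ± 0.33). Over the 24 tested laminins and integrins, 6 were higher and 4 lower at 2-fold, the latter a share near the 15.8% over all genes. With DESeq2, 3 were higher and 2 lower, and 2 were lower without the vehicle 6 h replicate 1.

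Of 31 tested enzymes and inhibitors that cut, protect or crosslink matrix, 12 were higher and 4 lower at 2-fold. The lower share is near the 15.8% over all genes, and 7 were lower with the 24 h libraries labelled T3. The membrane collagenase MMP14 measured 15.4 and 17.6 CPM at 6 h and 114 and 144 CPM at 24 h (log2 fold change 2.98 ± 0.20, adjusted p = 1.08e-09). The disintegrin protease ADAM12 measured 0.904 and 0.409 CPM at 6 h and 14.5 and 21.97 CPM at 24 h (log2 fold change 4.68 ± 0.52, adjusted p = 6.44e-07). TIMP1, an inhibitor of these proteases, fell with 72.04 and 66.3 CPM at 6 h and 22.1 and 21.5 CPM at 24 h (log2 fold change -1.67 ± 0.18), as did the protease MMP15, with 64.2 and 45.4 CPM at 6 h and 7.46 and 7.47 CPM at 24 h (log2 fold change -2.88 ± 0.35).

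**Figure D3:**
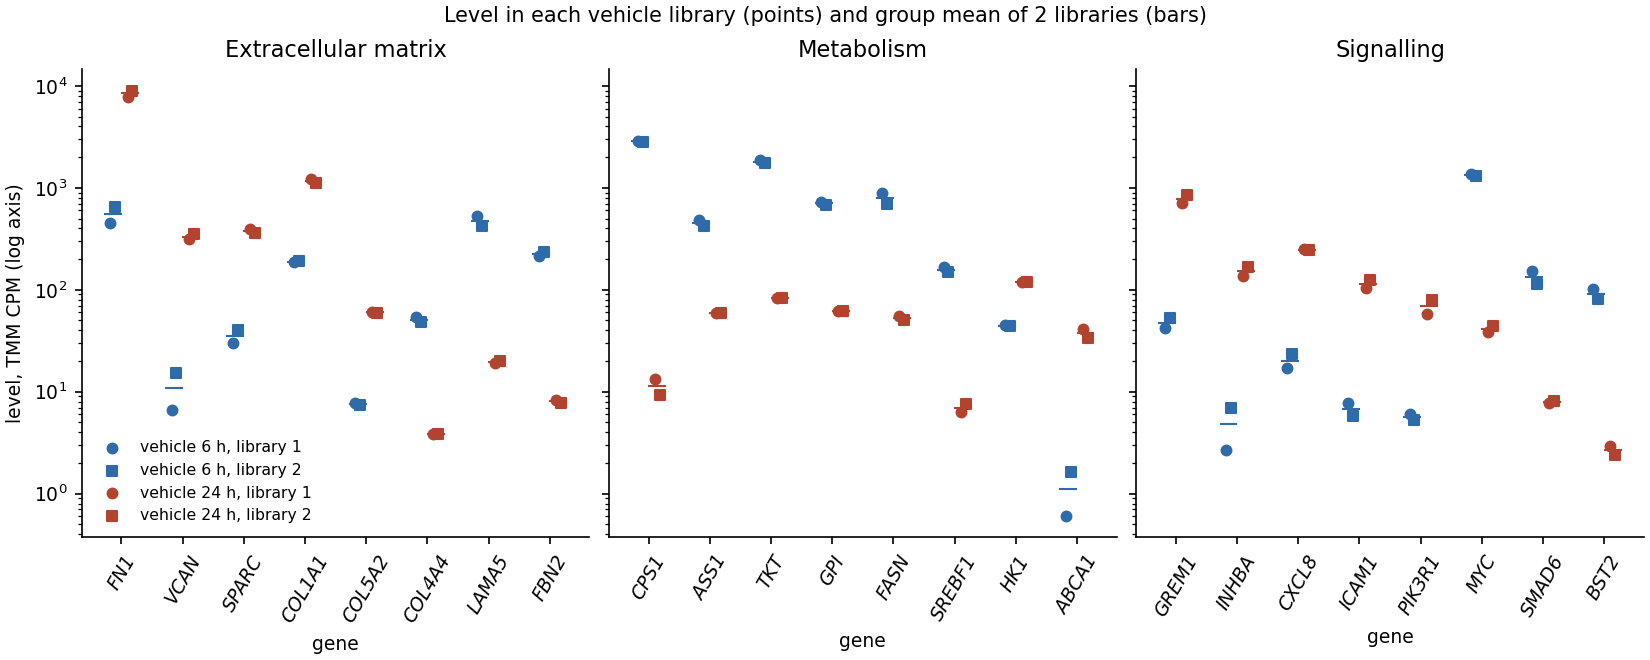
CPM of 24 matrix, metabolism and signalling genes in each vehicle library (log axis), with 1 point per library and a bar at the mean of the 2 libraries of a time. The 2 times do not overlap for any gene drawn, but most of these were picked for large changes, and 83.3% of all genes tested did not overlap either. The 24 h libraries lie above for FN1, ABCA1 and GREM1 and below for CPS1 and MYC.

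Glycolysis genes were lower at 24 h. Of 26 tested genes, 13 were lower and 2 higher by the 2-fold test (0 higher with DESeq2), with a median log2 fold change of -1.31, close to the -1.20 of the housekeeping list, with which it shares GAPDH. GPI, the isomerase of the second step, measured 734 and 681 CPM at 6 h and 62.1 and 62.04 CPM at 24 h (log2 fold change -3.51 ± 0.13, adjusted p = 1.01e-12). ALDOC, an aldolase, measured 29.5 and 26.2 CPM at 6 h and 0.226 and 0.897 CPM at 24 h (log2 fold change -5.43 ± 0.43, adjusted p = 2.01e-08). LDHA, the lactate dehydrogenase, measured 1080 and 1015 CPM at 6 h and 325 and 391 CPM at 24 h (log2 fold change -1.55 ± 0.13). The hexokinases parted: HK2 measured 132 and 118 CPM at 6 h and 31.4 and 26.01 CPM at 24 h (log2 fold change -2.14 ± 0.15), whereas HK1 rose with 44.9 and 43.8 CPM at 6 h and 120.2 and 120.5 CPM at 24 h (log2 fold change 1.44 ± 0.15). HIF1A, the oxygen-regulated factor that drives many of these enzymes, rose with 71.7 and 94.9 CPM at 6 h and 308 and 441 CPM at 24 h (log2 fold change 2.18 ± 0.17). NDRG1, a gene it induces, fell with 183 and 157 CPM at 6 h and 21.5 and 23.8 CPM at 24 h (log2 fold change -2.91 ± 0.15).

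Of 25 cholesterol synthesis genes, 13 were lower and 0 higher at 2-fold, with a median log2 fold change of -1.28. The housekeeping list came close to this, with 9 of 18 lower, 0 higher and a median of -1.20. SREBF2, the transcription factor of the pathway, measured 225 and 207 CPM at 6 h and 48.8 and 55.01 CPM at 24 h (log2 fold change -2.05 ± 0.15, adjusted p = 3.49e-09). With DESeq2, 8 of the cholesterol synthesis genes were lower at 2-fold.

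Core genes of fatty acid synthesis fell. FASN, the fatty acid synthase, measured 892 and 701 CPM at 6 h and 54.9 and 50.7 CPM at 24 h (log2 fold change -3.92 ± 0.18, adjusted p = 2.96e-11), SCD, the desaturase, 776 and 762 CPM at 6 h and 78.2 and 83.1 CPM at 24 h (log2 fold change -3.25 ± 0.13, adjusted p = 1.40e-12), and their regulator SREBF1 167 and 148 CPM at 6 h and 6.33 and 7.62 CPM at 24 h (log2 fold change -4.48 ± 0.21). ACSL1, which activates long-chain fatty acids, rose with 4.52 and 9.002 CPM at 6 h and 28.2 and 21.7 CPM at 24 h (log2 fold change 1.92 ± 0.31). Over 26 tested genes, 6 were lower and 1 higher at 2-fold (0 higher with DESeq2 and without the vehicle 6 h replicate 1, 4 with the 24 h libraries labelled T3).

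Of 21 tested genes of fatty acid oxidation and ketogenesis, 7 were lower and 0 higher at 2-fold, with 4 lower by DESeq2. CPT1A, the gate of mitochondrial entry, measured 231 and 220.1 CPM at 6 h and 41.6 and 30.4 CPM at 24 h (log2 fold change -2.66 ± 0.17, adjusted p = 6.93e-10), and PPARG, a lipid-sensing nuclear receptor, 37.1 and 42.1 CPM at 6 h and 3.39 and 2.99 CPM at 24 h (log2 fold change -3.63 ± 0.27, adjusted p = 3.87e-09). PPARGC1A, its coactivator, measured 11.2 and 11.1 CPM at 6 h and 1.13 and 0.449 CPM at 24 h (log2 fold change -3.88 ± 0.54). Among lipid transporters, ABCA1, which exports cholesterol, measured 0.603 and 1.64 CPM at 6 h and 41.6 and 33.9 CPM at 24 h (log2 fold change 5.13 ± 0.37). SCARB1, which takes it up from high density lipoprotein, measured 241 and 223 CPM at 6 h and 37.5 and 30.8 CPM at 24 h (log2 fold change -2.78 ± 0.15).

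In the urea cycle list of 17 tested genes, CPS1 among them, 6 were lower and 0 higher at 2-fold. ASS1, which joins citrulline and aspartate, measured 479 and 423 CPM at 6 h and 58.98 and 59.05 CPM at 24 h (log2 fold change -2.93 ± 0.14, adjusted p = 1.27e-11). The serine and one-carbon list had 1 of 18 tested genes higher and 1 lower at 2-fold, with 0 higher by DESeq2 and 2 higher and 2 lower with the 24 h libraries labelled T3. CTH, of cysteine synthesis, measured 42.5 and 34.8 CPM at 6 h and 5.42 and 7.33 CPM at 24 h (log2 fold change -2.58 ± 0.29, adjusted p = 6.66e-07). ALDH1L2, a mitochondrial folate enzyme, measured 3.32 and 2.86 CPM at 6 h and 14.7 and 16.4 CPM at 24 h (log2 fold change 2.32 ± 0.38). A further list joined targets of the oxidant-responsive factor NRF2 with other detoxification genes. Of its 23 tested genes, 12 were lower and 2 higher at 2-fold (1 higher with DESeq2, without the vehicle 6 h replicate 1 and with the 24 h libraries labelled T3), with a median log2 fold change of -1.42. On the housekeeping list 9 of 18 were lower, with a median of -1.20. TKT, the transketolase of the pentose phosphate path, measured 1875 and 1745 CPM at 6 h and 82.7 and 83.1 CPM at 24 h (log2 fold change -4.45 ± 0.15). The 2 that rose past 2-fold were CYP1B1 with 8.74 and 4.501 CPM at 6 h and 78.2 and 96.3 CPM at 24 h (log2 fold change 3.66 ± 0.24) and CYP1A1 with 2.41 and 3.27 CPM at 6 h and 11.98 and 12.7 CPM at 24 h (log2 fold change 2.13 ± 0.43), both detoxification genes of the list and targets of the aryl hydrocarbon receptor.

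**Figure D4:**
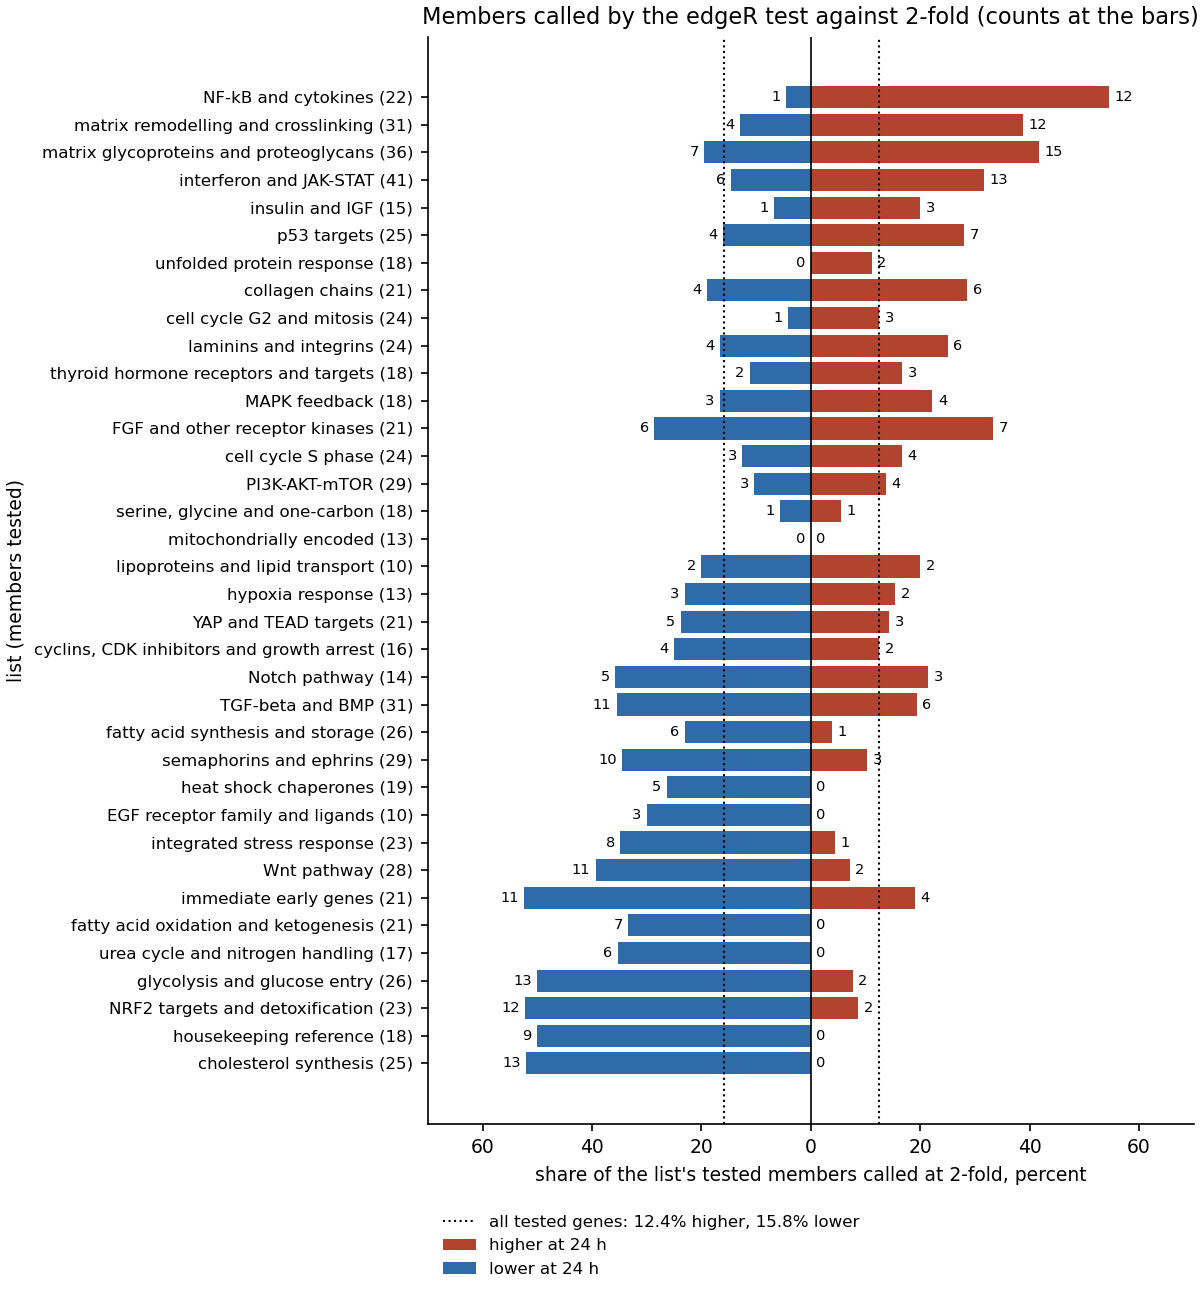
Share of tested members called higher (right) or lower (left) at 24 h by the test against 2-fold, with counts at the bars. The 36 lists drawn have at least 10 tested members. The lineage lists, those of HOX, junction and mesenchymal genes among them, are not drawn. Dotted lines mark the shares over all genes, 12.4% higher and 15.8% lower. The NF-kB list reaches farthest to the right, with 12 of 22, and the immediate early list farthest to the left, with 11 of 21.

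The mitochondrially encoded genes were not called, 0 of 13, although 4 were higher at 2-fold without the vehicle 24 h replicate 1. Their summed level was 18857 and 32401 CPM at 6 h and 27974 and 80098 CPM at 24 h, and the second library of the later time had the highest of the 4 sums. That library, vehicle 24 h replicate 2, had 3.07% of its counts in the mitochondrial ribosomal RNAs MT-RNR1 and MT-RNR2, against 0.103% in replicate 1 and at most 0.0137% at 6 h. MT-RNR1 measured 42.2 and 7.37 CPM at 6 h and 358 and 10683 CPM at 24 h and MT-RNR2 98.9 and 15.96 CPM at 6 h and 566 and 20281 CPM at 24 h, and both are ribosomal RNAs that depletion is meant to remove. Their calls (adjusted p = 0.0411 and 0.0482) were lost without the vehicle 6 h replicate 1.

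MYC, the growth-promoting transcription factor, was among the 5 genes with the smallest p-values. It measured 1352 and 1302 CPM at 6 h and 38.6 and 44.4 CPM at 24 h (log2 fold change -4.99 ± 0.14, adjusted p = 5.13e-14). Of 21 tested immediate early genes, which answer growth signals without new protein synthesis, 11 were lower and 4 higher at 2-fold, with a median log2 fold change of -1.49, with 1 higher by DESeq2 and 2 without the vehicle 6 h replicate 1. On the housekeeping list 9 of 18 were lower and 0 higher, with a median of -1.20. FOSL2, a subunit of the AP-1 factor, measured 630 and 559 CPM at 6 h and 124 and 123 CPM at 24 h (log2 fold change -2.27 ± 0.12, adjusted p = 5.09e-11). Its relative FOSL1 rose with 16.9 and 20.1 CPM at 6 h and 72.1 and 104 CPM at 24 h (log2 fold change 2.27 ± 0.21), and the early factor EGR1 with 3.62 and 4.501 CPM at 6 h and 14.9 and 19.3 CPM at 24 h (log2 fold change 2.10 ± 0.38).

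Of 18 feedback regulators of MAP kinase signalling, 4 were higher and 3 lower at 2-fold, the latter a share near the 15.8% over all genes, and 1 was higher with DESeq2 and without the vehicle 6 h replicate 1. The phosphatase DUSP1 fell with 222 and 191 CPM at 6 h and 21.5 and 20.6 CPM at 24 h (log2 fold change -3.30 ± 0.16, adjusted p = 2.35e-11). ETV5, an ETS factor downstream of the kinase ERK, measured 33.5 and 38.9 CPM at 6 h and 107 and 114 CPM at 24 h (log2 fold change 1.62 ± 0.16, adjusted p = 1.05e-07). Upstream of it, the receptor ERBB3 measured 30.1 and 31.9 CPM at 6 h and 9.94 and 8.67 CPM at 24 h (log2 fold change -1.74 ± 0.25). None of the 10 tested genes of the EGF receptor family list was higher at 2-fold and 3 were lower, with 1 higher with GC and length offsets and 3 when scaled by library size alone.

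In the TGF-beta and BMP list 6 of 31 tested genes were higher and 11 lower at 2-fold. INHBA, the activin A subunit, measured 2.71 and 6.96 CPM at 6 h and 138 and 169 CPM at 24 h (log2 fold change 5.07 ± 0.26, adjusted p = 5.15e-11). TGFB2 measured 4.22 and 4.09 CPM at 6 h and 31.4 and 50.1 CPM at 24 h (log2 fold change 3.30 ± 0.31, adjusted p = 7.71e-08). BMP6 measured 75.7 and 70.8 CPM at 6 h and was at least 273-fold lower. Among secreted antagonists, GREM1, which binds BMPs, measured 42.5 and 52.8 CPM at 6 h and 706 and 849 CPM at 24 h (log2 fold change 4.04 ± 0.15). SMAD6, an inhibitor that BMP signals induce, fell with 152 and 114 CPM at 6 h and 7.68 and 8.07 CPM at 24 h (log2 fold change -4.07 ± 0.20), and ID1, another BMP target, with 78.4 and 65.5 CPM at 6 h and 17.6 and 15.2 CPM at 24 h (log2 fold change -2.14 ± 0.18). The number lower at 2-fold was 7 with DESeq2, 7 with GC and length offsets and 7 without the vehicle 6 h replicate 1.

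In the Wnt list 11 of 28 tested genes were lower and 2 higher at 2-fold, with 7 lower and 1 higher by DESeq2. The canonical ligand WNT10B measured 18.99 and 15.6 CPM at 6 h and 0.678 and 0.747 CPM at 24 h (log2 fold change -4.55 ± 0.44, adjusted p = 1.30e-07), and the noncanonical ligand WNT5A 16.3 and 16.4 CPM at 6 h and 56.04 and 56.6 CPM at 24 h (log2 fold change 1.79 ± 0.19, adjusted p = 4.16e-07). RNF43, the ubiquitin ligase that removes Wnt receptors, fell with 29.8 and 31.5 CPM at 6 h and 1.58 and 1.94 CPM at 24 h (log2 fold change -4.08 ± 0.52), and LGR4, a receptor of the R-spondins that restrain RNF43, with 109 and 122 CPM at 6 h and 7.68 and 11.7 CPM at 24 h (log2 fold change -3.54 ± 0.20).

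Of 14 tested Notch genes, 3 were higher and 5 lower at 2-fold, with 3 lower when GC and length offsets were used, and 1 higher with DESeq2 and without the vehicle 6 h replicate 1. The ligands parted, JAG1 with 9.04 and 7.77 CPM at 6 h and 26.7 and 24.8 CPM at 24 h (log2 fold change 1.60 ± 0.26, adjusted p = 4.03e-05) and JAG2 with 69.9 and 54.4 CPM at 6 h and 11.3 and 5.83 CPM at 24 h (log2 fold change -2.92 ± 0.26, adjusted p = 4.38e-08). The Notch target gene NRARP measured 30.7 and 23.7 CPM at 6 h and 1.36 and 2.84 CPM at 24 h (log2 fold change -3.62 ± 0.48). MAML2, a coactivator, measured 9.34 and 11.9 CPM at 6 h and 33.4 and 55.6 CPM at 24 h (log2 fold change 2.10 ± 0.27).

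NF-kB and cytokine genes showed the largest share of rises among the lists with at least 10 tested members. Of 22 tested genes, 12 were higher and 1 lower at 2-fold (12.4% and 15.8% over all genes), with a median log2 fold change of 1.54. ICAM1, the leukocyte adhesion receptor, measured 7.84 and 5.73 CPM at 6 h and 104 and 125 CPM at 24 h (log2 fold change 4.05 ± 0.24, adjusted p = 2.15e-10). CXCL8, the neutrophil chemokine, measured 17.2 and 23.3 CPM at 6 h and 250.4 and 245 CPM at 24 h (log2 fold change 3.63 ± 0.16, adjusted p = 7.75e-12). The cytokine IL6 measured 9.04 and 9.82 CPM at 6 h and 79.99 and 105 CPM at 24 h (log2 fold change 3.30 ± 0.22). TNFAIP3, which restrains the pathway, fell with 112 and 110.5 CPM at 6 h and 37.7 and 45.1 CPM at 24 h (log2 fold change -1.41 ± 0.14). The number higher at 2-fold was 8 with DESeq2, and the number lower was 0 with DESeq2 and 2 with GC and length offsets.

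Of 41 tested genes of the interferon and JAK-STAT signalling list, 13 were higher and 6 lower at 2-fold. The lower share is near the 15.8% over all genes. The higher number was 6 with DESeq2 and 7 without the vehicle 6 h replicate 1. GBP1, a guanylate-binding protein, measured 0.301 and 0.409 CPM at 6 h and 19.2 and 17.3 CPM at 24 h, 52.1 times more (95% interval from counting error, 14.2 to 433). The antiviral MX1 measured 1.51 and 1.64 CPM at 6 h and 23.9 and 27.4 CPM at 24 h (log2 fold change 4.02 ± 0.39, adjusted p = 1.18e-07). BST2, tetherin, fell with 101 and 81.02 CPM at 6 h and 2.94 and 2.39 CPM at 24 h (log2 fold change -5.11 ± 0.24, adjusted p = 1.82e-11), and IFITM2, a membrane restriction factor, with 87.7 and 85.9 CPM at 6 h and 0.226 and 0.449 CPM at 24 h (log2 fold change -7.82 ± 0.38).

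In the list of the PI3K and mTOR pathway, AKT2, a kinase of insulin signalling, measured 191 and 162 CPM at 6 h and 59.4 and 73.2 CPM at 24 h (log2 fold change -1.41 ± 0.15, adjusted p = 3.25e-07). The regulatory subunit PIK3R1 measured 6.03 and 5.32 CPM at 6 h and 58.5 and 80.1 CPM at 24 h (log2 fold change 3.60 ± 0.25, adjusted p = 2.49e-09), and the catalytic subunit PIK3CD 22.3 and 17.6 CPM at 6 h and 78.4 and 67.6 CPM at 24 h (log2 fold change 1.85 ± 0.20). FOXO1, a transcription factor that AKT keeps out of the nucleus, measured 71.7 and 71.2 CPM at 6 h and 7.005 and 11.4 CPM at 24 h (log2 fold change -2.92 ± 0.36). DDIT4, an inhibitor of mTOR, measured 319 and 248 CPM at 6 h and 62.1 and 54.9 CPM at 24 h (log2 fold change -2.28 ± 0.16). The PI3K list had 4 of 29 tested genes higher and 3 lower at 2-fold, close to the shares over all genes, and 5 lower with the 24 h libraries labelled T3.

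In the insulin and IGF list 3 of 15 tested genes were higher and 1 lower at 2-fold, with 2 lower with GC and length offsets. HMGA2, an architectural chromatin protein, measured 3.92 and 5.32 CPM at 6 h and 72.99 and 98.8 CPM at 24 h (log2 fold change 4.25 ± 0.25, adjusted p = 2.06e-10). IGF2BP2, an RNA-binding protein, measured 25.3 and 26.6 CPM at 6 h and 150 and 189.5 CPM at 24 h (log2 fold change 2.71 ± 0.18, adjusted p = 1.17e-09). IGFBP7, a secreted binding protein, fell with 114 and 86.8 CPM at 6 h and 10.6 and 11.1 CPM at 24 h (log2 fold change -3.21 ± 0.23). GFRA1, the coreceptor of the neurotrophic factor GDNF, measured 12.96 and 32.3 CPM at 6 h and 264 and 281 CPM at 24 h (log2 fold change 3.65 ± 0.25). MST1R, the receptor RON, measured 37.1 and 31.9 CPM at 6 h and 0.452 and 0 CPM at 24 h, 194 times less (95% interval from counting error, 52.98 to 1612). The FGF receptor FGFR4 measured 33.2 and 19.2 CPM at 6 h and 3.39 and 2.69 CPM at 24 h (log2 fold change -3.14 ± 0.40). Over 21 tested growth factor and receptor genes, 7 were higher and 6 lower at 2-fold, against 3 and 3 with DESeq2 and 3 higher without the vehicle 6 h replicate 1.

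YAP1, the growth-control coactivator, measured 934 and 961 CPM at 6 h and 169.5 and 185 CPM at 24 h (log2 fold change -2.42 ± 0.12, adjusted p = 3.65e-11). Its target CTGF, a matricellular protein, rose with 12.1 and 12.3 CPM at 6 h and 45.2 and 39.9 CPM at 24 h (log2 fold change 1.80 ± 0.21, adjusted p = 1.04e-06). The list of its targets, which also holds YAP1 itself, WWTR1 and TEAD factors, had 3 of 21 tested genes higher and 5 lower at 2-fold. Over all genes the shares were 12.4% and 15.8%. The lower number was 3 with DESeq2 and with GC and length offsets. DLC1, a tumour suppressor gene of the same list, measured 22.9 and 21.7 CPM at 6 h and 190 and 178 CPM at 24 h (log2 fold change 3.04 ± 0.19).

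Of the semaphorin and ephrin list of 29 tested genes, 10 were lower and 3 higher at 2-fold, the latter a share near the 12.4% over all genes. The secreted ligand SEMA3B fell with 136 and 112 CPM at 6 h and 16.5 and 11.96 CPM at 24 h (log2 fold change -3.16 ± 0.22, adjusted p = 1.79e-09). Semaphorin coreceptors rose, NRP1 with 5.12 and 7.77 CPM at 6 h and 39.3 and 48.4 CPM at 24 h (log2 fold change 2.80 ± 0.27, adjusted p = 9.23e-08) and NRP2 with 0.301 and 2.05 CPM at 6 h and 19.4 and 25.6 CPM at 24 h (log2 fold change 4.396 ± 0.49). The list's lower number was 5 with DESeq2 and 5 without the vehicle 6 h replicate 1.

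The thyroid hormone receptors moved in opposite directions. THRB measured 6.63 and 9.002 CPM at 6 h and 29.4 and 40.96 CPM at 24 h (log2 fold change 2.20 ± 0.28, adjusted p = 2.70e-06). THRA measured 82.9 and 63.8 CPM at 6 h and 25.8 and 32.1 CPM at 24 h (log2 fold change -1.34 ± 0.18, adjusted p = 7.01e-06). The coactivator NCOA1 measured 13.9 and 17.6 CPM at 6 h and 53.5 and 71.3 CPM at 24 h (log2 fold change 2.01 ± 0.22). SMARCA4, an ATPase of the SWI/SNF remodelling complex named in the title of the study, measured 339.7 and 324 CPM at 6 h and 178 and 198 CPM at 24 h (log2 fold change -0.82 ± 0.11) and did not pass the 2-fold test, and its call was lost with GC and length offsets. Of the 18 tested genes of the list, 3 were higher and 2 lower at 2-fold, KLF9 and HR included, near the 12.4% and 15.8% over all genes. The lower number was 1 with DESeq2, with GC and length offsets and without the vehicle 6 h replicate 1, and 5 with the 24 h libraries labelled T3.

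Stress genes were lower in part. In the integrated stress response list 8 of 23 tested genes were lower and 1 higher at 2-fold, with 0 higher by DESeq2 and without the vehicle 6 h replicate 1. SLC7A5, the large neutral amino acid transporter, fell with 2990 and 2626 CPM at 6 h and 289 and 309 CPM at 24 h (log2 fold change -3.23 ± 0.14, adjusted p = 4.07e-12). With GC and length offsets 5 members of that list were lower. Of 19 chaperones 5 were lower and 0 higher at 2-fold, with 3 lower when GC and length offsets were used. The inducible chaperone HSPA1A fell with 91.03 and 70.8 CPM at 6 h and 3.84 and 9.12 CPM at 24 h (log2 fold change -3.56 ± 0.25, adjusted p = 6.96e-09), and its constitutive relative HSPA8 with 2481 and 2435 CPM at 6 h and 692 and 804 CPM at 24 h (log2 fold change -1.72 ± 0.13). The unfolded protein response list had 2 of 18 higher, a share near the 12.4% over all genes, and 0 lower at 2-fold. With DESeq2, with GC and length offsets and without the vehicle 6 h replicate 1, 0 of that list were higher.

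Cell cycle lists stayed near the background. Of 24 S phase genes 4 were higher and 3 lower, and of 24 genes of G2 and mitosis 3 were higher and 1 lower, at 2-fold. With DESeq2, 2 of the S phase list and 1 of the mitosis list were higher, and with GC and length offsets 0 of the latter. With the 24 h libraries labelled T3, 6 of the S phase list were lower. MKI67, the proliferation antigen, measured 441 and 644 CPM at 6 h and 1173 and 1804 CPM at 24 h (log2 fold change 1.46 ± 0.20, adjusted p = 2.49e-05). Within the S phase list the replication checkpoint gene CLSPN rose with 40.1 and 62.6 CPM at 6 h and 308 and 409 CPM at 24 h (log2 fold change 2.83 ± 0.19, adjusted p = 5.69e-09), and the licensing factor CDT1 fell with 315 and 249 CPM at 6 h and 30.3 and 39.02 CPM at 24 h (log2 fold change -3.02 ± 0.16). The growth suppressor RB1 rose with 35.3 and 50.7 CPM at 6 h and 229.6 and 284 CPM at 24 h (log2 fold change 2.60 ± 0.16), and the cell cycle inhibitor gene CDKN2A fell with 319 and 299.5 CPM at 6 h and 45.4 and 82.4 CPM at 24 h (log2 fold change -2.26 ± 0.20). GAS1, a growth arrest gene, measured 69.3 and 53.6 CPM at 6 h and 0.678 and 0 CPM at 24 h, 232 times less (95% interval from counting error, 78.8 to 1131). Among p53 targets 7 of 25 were higher and 4 lower at 2-fold, the latter a share near the 15.8% over all genes. Their lower number was 2 with DESeq2 and without the vehicle 6 h replicate 1. GDF15, a secreted stress factor, fell with 55.5 and 55.6 CPM at 6 h and 8.13 and 9.57 CPM at 24 h (log2 fold change -2.63 ± 0.22).

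The 12 largest rises by fold, among genes reaching a mean of 10 CPM, included 6 zinc finger genes. ZNF471 had no count at 6 h and 18.8 and 20.8 CPM at 24 h, at least 38.4-fold higher. ZFP3 had no count at 6 h and 14.2 and 23.2 CPM at 24 h, at least 37.7-fold higher, and ZNF569 measured 0.301 and 0 CPM at 6 h and 21.7 and 21.8 CPM at 24 h, 125 times more (95% interval from counting error, 22.3 to 4975). ZNF525, ZNF347 and ZNF492 had no count at 6 h and were at least 34.6-fold, 20.2-fold and 22.8-fold higher. The other rises were ADD2, a membrane skeleton adducin, with 0 and 0.409 CPM at 6 h and 14.2 and 17.3 CPM at 24 h, KIF1A, a kinesin of axonal transport, with 0.301 and 0 CPM at 6 h and 12.4 and 17.04 CPM at 24 h, and TLR3, the sensor of double-stranded RNA, with 0 and 0.409 CPM at 6 h and 17.2 and 16.9 CPM at 24 h. MAL, a lipid raft protein, had no count at 6 h and 14.01 and 10.6 CPM at 24 h, and the mitochondrial ribosomal RNAs above complete the 12.

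A count of symbols beginning with ZNF or ZFP, made after these values were seen, found 142 of 465 tested genes higher and 29 lower at 2-fold (30.5% and 6.24%), with a median log2 fold change of 0.64. On chromosome 19, which holds 211 of them, 69 were higher (32.7%) and 17 lower (8.06%). The other 670 tested genes placed on chromosome 19 went the other way, with 19 higher (2.84%) and 241 lower (36%) and a median log2 fold change of -1.09. Chromosome 19 is rich in GC. Over the 12577 tested genes with a GC value, the offsets for GC content and length changed the 2-fold count from 3639 to 2624. Of the main 2-fold calls, 2095 were kept with the offsets and 3615 without them. What part GC content has in the zinc finger counts was not tested.

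For comparison, a stretch before the start of ZNF569 (a rise, chr19:37467473-37467518, minus strand) and the window before PRSS56 (a fall, chr2:232520213-232520462, plus strand) are given in the same form, from RefSeq on GRCh38.p14, with CACCTG or its complement in capitals.
ZNF569: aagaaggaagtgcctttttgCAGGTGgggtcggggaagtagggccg
PRSS56: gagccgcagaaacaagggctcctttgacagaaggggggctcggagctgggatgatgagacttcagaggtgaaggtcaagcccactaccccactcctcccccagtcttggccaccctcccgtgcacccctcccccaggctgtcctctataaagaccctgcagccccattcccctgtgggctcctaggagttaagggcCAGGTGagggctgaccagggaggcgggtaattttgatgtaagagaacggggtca
Among the 12 largest rises 9 genes matched and 3 of 12 windows held the letters (25%), and among the 12 largest falls 8 matched and 1 of 16 windows did (6.25%).

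The T3 libraries are the only other libraries of both times. They share no library with the vehicle comparison, although 1 fit gave the spread for both. Between 24 h and 6 h, 10281 genes were called in them (70.4%) and 5283 by the 2-fold test (36.2%). In both treatments 3617 genes were called at 2-fold in the same direction and 1 in opposite directions, 87.9% of the vehicle calls and 68.5% of the T3 calls. Across genes the log2 fold changes of the 2 treatments had a Pearson correlation of 0.908, and the genes are not independent replicates. A test of the difference itself called 269 genes (1.84%), 124 with a higher (0.849%) and 145 with a lower (0.992%) time change in the T3 libraries, and 2295 had an unadjusted p under 0.05. The number called ranged from 49 to 750 when single libraries were left out.

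KLF9 had the largest called difference among named genes, -7.03 ± 0.57 (adjusted p = 4.08e-06): its change was 4.88 ± 0.46 in the vehicle libraries and -2.14 ± 0.33 in the T3 libraries. TNS4, a focal adhesion tensin, measured 8.44 and 8.18 CPM at 6 h and 0.226 and 0.449 CPM at 24 h in the vehicle libraries and 68.4 and 61.6 CPM at 6 h and no count at 24 h with T3. MT1X, a metallothionein, measured 1.81 and 2.86 CPM at 6 h and 0.904 and 1.495 CPM at 24 h with vehicle and 104 and 131 CPM at 6 h and 0.155 and 1.27 CPM at 24 h with T3. For TNS4 and MT1X the treatments were far apart at 6 h, and both were near the floor at 24 h. FN1 and CXCL8 rose in both treatments and more in the T3 libraries, with differences of 1.95 ± 0.22 and 2.02 ± 0.26 (SE) on the log2 scale. Among the lists, 11 of 19 chaperones and 9 of 23 integrated stress response genes differed between treatments, against 1.84% of all genes. The 0 of 22 HOX genes and 0 of 26 glycolysis genes that did lie near that share. A gene with no count at 24 h in both treatments could not be called: for COL4A5 the standard error of the difference was 122.9.

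**Figure D5:**
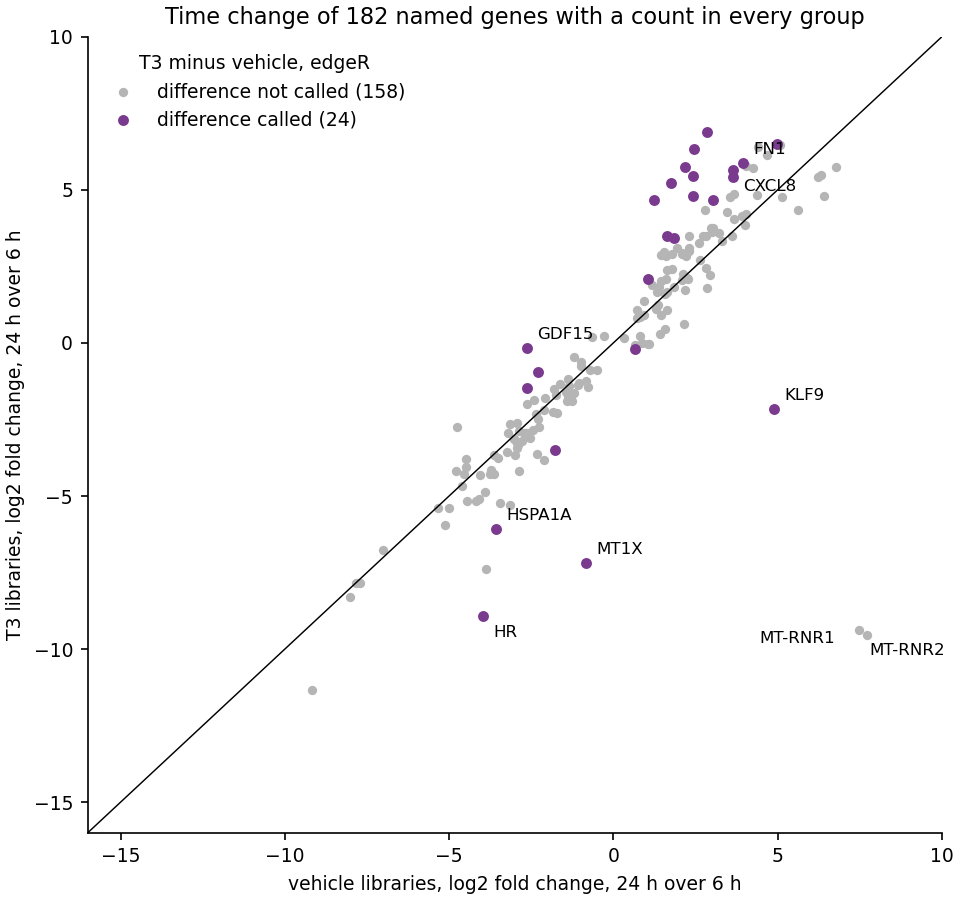
Log2 fold change between 24 h and 6 h in the vehicle libraries (x axis) and in the T3 libraries (y axis) for the 182 named genes with a count in every group. Purple points mark the 24 genes whose change differed between treatments by the edgeR test, and the line marks equal changes. Most points lie along the line, and KLF9, MT1X, HR and the mitochondrial ribosomal RNAs lie below it.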

How the data were processed

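Each of the 8 libraries came with 1 table of counts per gene, which the authors deposited as whole read counts. Per the submitters' processing notes, CASAVA 1.7, STAR 2.7, HTSeq and DESeq2 were used with the build hg38, in roles the notes do not give, and the sources used here do not give the aligner settings, the annotation or the strand setting. Counts in genes made up 12.9 to 17.1% of all reads in the tables at 6 h and 19.5 to 24.4% at 24 h. Reads without a unique alignment made up 61.2 to 67.4% at 6 h and 47.6 to 57.05% at 24 h. Both shares thus part the libraries by time, and what this does to the fold changes was not tested. The 5 summary rows that name no gene were left out. In R 4.3.3, edgeR 4.0.16 (TMM scaling, low-count filter, robust quasi-likelihood fit) was fitted to all 8 libraries with 1 coefficient per group, giving 4 residual degrees of freedom and a biological coefficient of variation of 13.1%. It tested vehicle at 24 h against 6 h, against no change and against 2-fold, the same in the T3 libraries, and the difference between them, with Benjamini-Hochberg adjustment over all genes at 0.05. The code was tested on simulated data in which few genes changed, so it was not checked where most genes change, as here. Genes at 0 in a group are given as bounds from 3 counts, and with 1 to 3 counts as a ratio with an exact binomial 95% interval.

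Positions are from GENCODE 29 on GRCh38, matched by symbol for 12577 of the 14611 tested genes, and promoters from RefSeq on GRCh38.p14. Named genes have a mean of at least 10 CPM in the higher group and are, by rule, the 12 that rose most, the 12 that fell most and the 5 lowest p-values. The rule added the 2 largest rises and the 2 largest falls of each list, the 10 most abundant genes per time, a set of thyroid, hormone and state genes, and the 5 largest differences between treatments each way (221 genes, some that it picks being not reported here). Another 29 tested list members were chosen after their values were seen, the lists and the comparison itself were chosen with earlier results of these data known, and no list was given a test of its own. Alternatives were DESeq2 1.42.0, other scalings and filters, the vehicle libraries alone, a replicate block, GC and length offsets, leaving out each library, the 24 h libraries labelled T3, and, chosen after seeing the data, the genes with a GC value without offsets.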

Additional observations from a re-analysis of the deposited data

Results flagged for a closer look

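The results below are named genes whose time change differed between the T3 and the vehicle libraries in an edgeR test of that difference. The values are differences of log2 fold changes, T3 minus vehicle, and since KLF9 and HR went against the 24 h labels, the treatment behind each is only that of the library labels.

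The time change was lower in the T3 libraries for KLF9 (-7.03), HR (-4.96), the tensin TNS4 (-6.89), the metallothionein MT1X (-6.34), the type IV collagen chain COL4A3 (-5.51), the engulfment adaptor ELMO3 (-5.36), the chaperones HSPA1A (-2.51), HSPB1 (-1.73) and HSPA8 (-1.01), and the zinc exporter SLC30A1 (-0.87). Of these, TNS4, COL4A3 and ELMO3 had no count in the T3 libraries at 24 h, so their values depend on the prior count of the fit and are no bounds.

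It was higher in the T3 libraries for the mechanosensitive channel PIEZO2 (4.05), the meiosis gene MEIOC (3.86), DPY19L2P2 (3.56), CNRIP1 (3.47), CCDC8 (3.43), occludin OCLN (3.03) and claudin CLDN1 (1.46). Secreted factors of this kind were GDF15 (2.48), PDGFC (2.37), CXCL8 (2.02), STC2 (1.03) and, in the matrix, FN1 (1.95) and VCAN (1.52). Signalling genes were ETV5 (1.86), GFRA1 (1.77), DLC1 (1.63), PIK3CD (1.57) and DDIT4 (1.34), and the zinc importer SLC39A10 (1.18). For PIEZO2, MEIOC, DPY19L2P2, CNRIP1, CCDC8, FN1, CXCL8 and VCAN the vehicle libraries at 6 h held more of the gene than the T3 libraries of that time. ETV5, DLC1 and DDIT4 had the same order, with means at 6 h of 36.2, 22.3 and 283.5 CPM in the vehicle libraries. The T3 libraries at 6 h held 10.9, 8.35 and 110.2 CPM of them. For the other genes of this paragraph the order at 6 h is not given here.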

How the results depend on the processing

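The count of genes called between the vehicle times stayed within 1.5 times of 9424 under each alternative, from 7228 without the vehicle 6 h replicate 1 to 10350 with the 24 h libraries labelled T3. The 2-fold count of 4114 was 2234 with DESeq2 (804 higher, 1430 lower) and, over the 12577 genes with a GC value, 2624 with GC and length offsets (1393 lower) and 3639 without them, an alternative chosen after seeing the data. Of the 4114 calls, 2095 were kept in the same direction with the offsets, against 3615 in the same genes without them. Leaving out 1 library gave 2605 to 4508 such genes, 1045 to 1979 of them higher, the lowest values without the vehicle 6 h replicate 1. The count of genes differing between treatments was 674 without a filter and 49 to 750 with 1 library left out: 123 and 81 without the vehicle 6 h replicates 1 and 2, 71 and 49 without those of T3 at 6 h, and 750 without the vehicle 24 h replicate 1. Scaling by library size alone moved the median log2 fold change of all genes from 0.03 to 0.15.

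With GC and length offsets the log2 fold changes of CANX (-0.29), SLC30A1 (-0.23), ZEB1 (-0.045) and COL4A2 (0.52) changed sign. MT-CO1 and MT-ND5 did so without the vehicle 24 h replicate 2, with ranges over single libraries left out of -0.080 to 1.19 and -0.0024 to 1.71, and HHEX (0.084), MT-RNR1 (-3.31) and MT-RNR2 (-3.40) with the 24 h libraries labelled T3. The cause was not tested. Of the genes that the rule named, 207 were called, against 196 without the vehicle 6 h replicate 1 and 192 with GC and length offsets. Without the rows MT-RNR1 and MT-RNR2, an alternative chosen after seeing the data, 4110 genes were called at 2-fold.

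Deviations of same-numbered libraries correlated at -0.0437 to 0.0972, so the numbers were not taken as pairs. With the replicate block 9350 genes were called, 4035 at 2-fold, and 321 differed between treatments. Depth limits what can be said of low genes: in the shallowest library a gene below 1.19 CPM, before TMM scaling, lies under the floor of 3 counts. With 2 libraries a group, 1 of them can decide a call.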
